A study of Mus musculus with 2 samples.

Results

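The genes described here are 10 microRNA genes at the proximal end of the microRNA-rich stretch of the imprinted Dlk1-Dio3 locus of mouse chromosome 12: Mir770, Mir673, Mir493, Mir337, Mir540, Mir665, Mir431, Mir433, Mir127 and Mir434. They were taken by name and position, with earlier results of these data known but by no threshold on a measured value, and all 10 were found among the 1973 genes of the tables. In the mm10 (GRCm38) build they lie on the plus strand of chromosome 12 between positions 109563692 and 109594599. Small RNAs under 30 nucleotides were sequenced from limbs of B6NCrl mouse embryos aged 14.5 days. Both samples belonged to 1 untreated group, 4 limbs each, and were numbered as biological replicates 1 and 2. The labels give a mixed sex and name the same pup, litter and donor for both, with collection on different days, so how far the samples are separate animals is not settled by them. Whole limb is a mixture of cartilage, muscle, skin, vessels and other cells, and in such a bulk sample fewer cells of a type and less RNA per cell cannot be told apart. With 1 group, the questions are how high each gene stood along the locus and how far the pair of libraries differed.

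At this locus the paternal chromosome expresses protein-coding genes such as Dlk1 and Rtl1, and the maternal chromosome expresses noncoding RNAs in the opposite direction to Rtl1: Meg3, an antisense transcript across Rtl1, Rian and Mirg. The microRNAs are cut from these maternal transcripts as hairpins, and each hairpin can give a mature microRNA from its 5′ arm and another from its 3′ arm. A microRNA finds its targets mainly through its seed, the bases near its 5′ end. Those antisense to Rtl1, a retrotransposon-derived gene needed in placenta and in fetal muscle, are fully complementary to the Rtl1 mRNA and are known to direct its cutting.

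The sequences show that relation. By the GENCODE M21 annotation, the hairpins of Mir431, Mir433, Mir127 and Mir434 lie opposite an exon of Rtl1, which runs on the minus strand from 109589193 to 109600330. The other 6 lie outside Rtl1. All 10 genes matched a hairpin in the RefSeq table of the GRCm38.p6 build. All 8 mature arms of the 4 antisense genes, but none of the 12 arms of the other genes, had a fully complementary stretch in the Rtl1 transcript. The mature sequences of these 4 genes, and of Mir337, the highest gene outside Rtl1, are given 5′ to 3′ with the seed, bases 2 to 8, in capitals.
mmu-miR-431-5p: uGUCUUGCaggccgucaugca
mmu-miR-431-3p: cAGGUCGUcuugcagggcuucu
mmu-miR-433-5p: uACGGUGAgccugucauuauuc
mmu-miR-433-3p: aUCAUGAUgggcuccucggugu
mmu-miR-127-5p: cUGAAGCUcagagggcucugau
mmu-miR-127-3p: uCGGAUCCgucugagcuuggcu
mmu-miR-434-5p: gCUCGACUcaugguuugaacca
mmu-miR-434-3p: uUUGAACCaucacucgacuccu
mmu-miR-337-5p: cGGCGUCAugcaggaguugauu
mmu-miR-337-3p: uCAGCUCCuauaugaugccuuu

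The 20 mature arms of the 10 genes had 20 different seeds, so the genes form no seed family. Of these, 18 seeds occurred in no other of the 1738 mature sequences of the table. The seed of miR-673-5p was shared with miR-6985-3p, and that of miR-540-3p with miR-6915-5p. The complementary stretches lay within the coding part of the Rtl1 transcript, which spans positions 148 to 5379 of 6358. Because Rtl1 runs in the opposite direction, Mir434, the last gene along the locus, has its sites nearest the 5′ end of the mRNA (positions 965 to 986 for the 3p arm), and Mir431 nearest the 3′ end (5072 to 5092 for the 5p arm). The site opposite miR-127-3p, at positions 2642 to 2663, is shown as an example in the sense of the mRNA.
Rtl1 site of miR-127-3p: agccaagcucagacggauccga

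Repeated letters stood out in the hairpin of Mir434, an observation made after the sequences were compared. A run of 9 bases shared by its 5p and 3p arms, in capitals, occurs 3 times in the hairpin.
Mir434 hairpin: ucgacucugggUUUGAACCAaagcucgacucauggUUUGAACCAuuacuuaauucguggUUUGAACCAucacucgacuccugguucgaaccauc
The arms of Mir431 share a run of 10 bases, and in the other 8 genes the longest shared run was 3 to 6 bases. The counts are given per gene and do not separate the arms. No hairpin of the 10 shared a stretch of 22 bases with another annotated microRNA gene, and the hairpins were 67 to 124 bases long with a GC content from 45.7% to 70.2%.

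Levels are given in CPM (counts per 1000000), the reads of a gene on its own strand scaled to the sum of such reads over all microRNA genes. The mature sequences of the 10 genes are of similar length (19 to 26 bases), so no correction for length was made, but how evenly different microRNAs yield reads was not measured. Replicate 1 held 4608816 own-strand reads and replicate 2 held 4144385. Together the 10 genes had 136128 reads in replicate 1 and 102384 in replicate 2, or 29536 and 24704 CPM. That was 2.71% ± 0.342 of the singly aligned own-strand microRNA reads (SD, n = 2). With multiply aligned reads in the total the mean summed level was 16547 CPM in place of 27120 CPM.

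The genes antisense to Rtl1 held most of these reads. Mir127 (ENSMUSG00000070076.1, at 109592846 to 109592915), whose mature product is a known repressor of Rtl1 in placenta, stood at 13173 CPM in replicate 1 and 11093 CPM in replicate 2 (12133 ± 1471 CPM, SD, n = 2), rank 19 of all 1973 genes. Mir431 (ENSMUSG00000070080.1, at 109590447 to 109590537), which also targets Rtl1 and is known to act in muscle precursor cells, stood at 8825 and 7374 CPM (8099 ± 1026 CPM), rank 26. These 2 genes alone held 74.6% ± 0.196 of the reads of the 10. Mir434, at 109594506 to 109594599, followed at 2027 and 1604 CPM (1816 ± 299.5 CPM), and Mir433, at 109591715 to 109591838, was the lowest of the antisense genes at 1519 and 1169 CPM (1344 ± 248 CPM). High and low genes alternated within Rtl1: Mir433 lies between Mir431 and Mir127, and Mir127 exceeded it 8.67-fold in replicate 1 and 9.49-fold in replicate 2.

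Between Mir493 and the 3′ end of Rtl1, 3 genes lie together within a short stretch. Mir337, at 109585789 to 109585885, stood at 2034 CPM in replicate 1 and 1740 CPM in replicate 2. Mir540, at 109586080 to 109586146, stood at 763 and 706 CPM. Mir665, at 109586314 to 109586407, stood at 796 and 666 CPM. Mir337 was 2.67 and 2.46 times its neighbour Mir540 in the respective libraries, while Mir665 was above Mir540 in replicate 1 and below it in replicate 2. This trio held 12.4% ± 0.310 of the reads of the 10 genes.

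The first 3 genes along the locus were the lowest. Mir770, which overlaps an exon of the noncoding gene Meg3 on the same strand (109563692 to 109563785), stood at 77.7 CPM in replicate 1 (95% exact binomial interval 69.8 to 86.2) and 73.4 CPM in replicate 2 (65.3 to 82.1). Mir673, which lies just past the end of Meg3 (109571990 to 109572080), stood at 167 CPM (155 to 179) and 150.3 CPM (139 to 163). Mir493, in no other annotated gene (109580233 to 109580315), stood at 155 CPM (144 to 166) and 127 CPM (117 to 138). All 3 were far above the level of 3 reads, which comes to 0.651 and 0.724 CPM in the respective libraries, yet together they held only 1.39% ± 0.0484 of the reads of the 10 genes. Intervals and this floor cover counting error only.

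**Figure D1:**
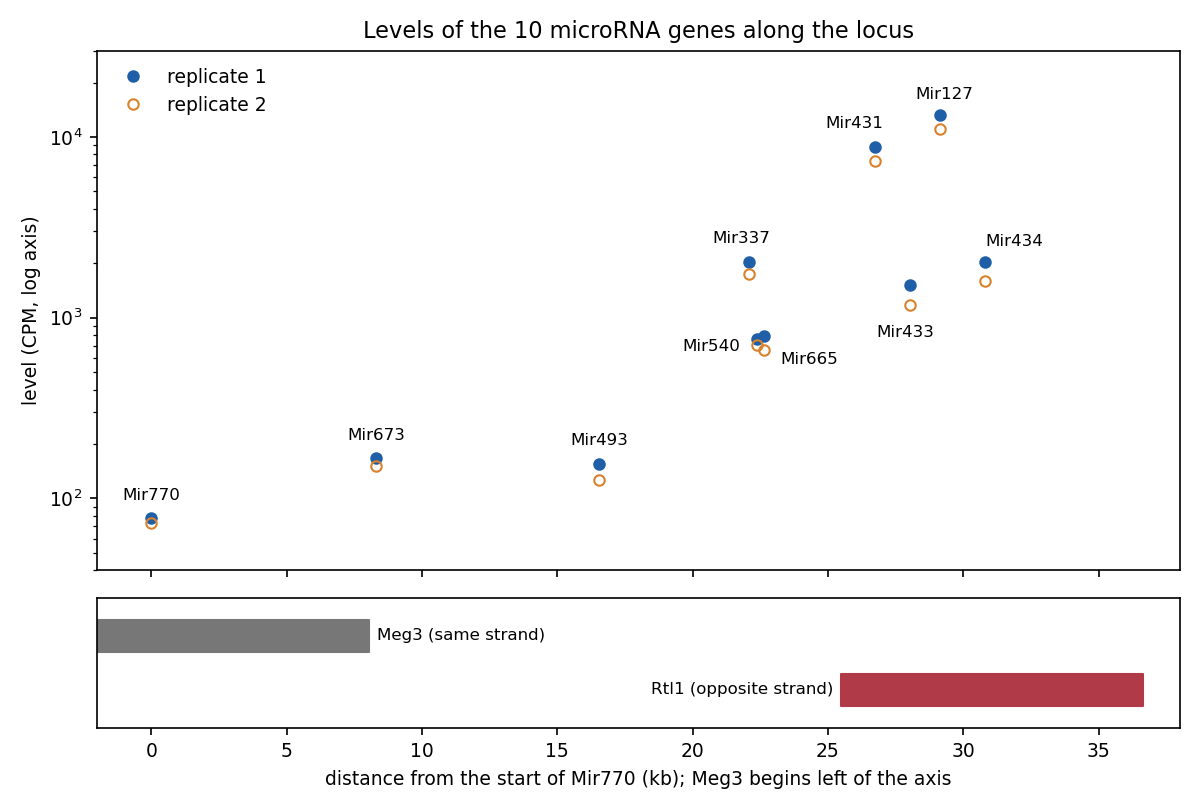
Level of each gene (CPM, log axis) against its distance from the start of Mir770 (kb), with filled points for replicate 1, open points for replicate 2, and bars below for the extents of Meg3 and Rtl1. Mir770 lies lowest at 77.7 and 73.4 CPM and Mir127 highest at 13173 and 11093 CPM, and the 4 genes over Rtl1 include both a high and a low pair.

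In order of level the genes ran Mir127, Mir431, Mir337, Mir434, Mir433, Mir540, Mir665, Mir673, Mir493 and Mir770. Of the 9 neighbouring pairs in this order, 6 had ranges over the 2 libraries that did not overlap. The 3 pairs that overlapped were Mir337 with Mir434, Mir540 with Mir665, and Mir673 with Mir493. Within a library, Mir337 was above Mir434 (1.003-fold and 1.085-fold) and Mir673 above Mir493 (1.079-fold and 1.18-fold) in both, while Mir540 and Mir665 reversed their order. Mir127 exceeded Mir431 by 1.49-fold in replicate 1 and 1.504-fold in replicate 2. From the lowest to the highest gene the span was 170-fold in replicate 1 and 151-fold in replicate 2.

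Set by position, the level was stepped: the 4 genes antisense to Rtl1 together held 7.11 and 6.82 times the reads of Mir337, Mir540 and Mir665, which in turn held 9.00 and 8.87 times those of Mir770, Mir673 and Mir493. These ratios differed little between the libraries. Only the sums followed the direction of transcription; single genes did not, since Mir337 stood above Mir433, which lies downstream of it.

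**Figure D2:**
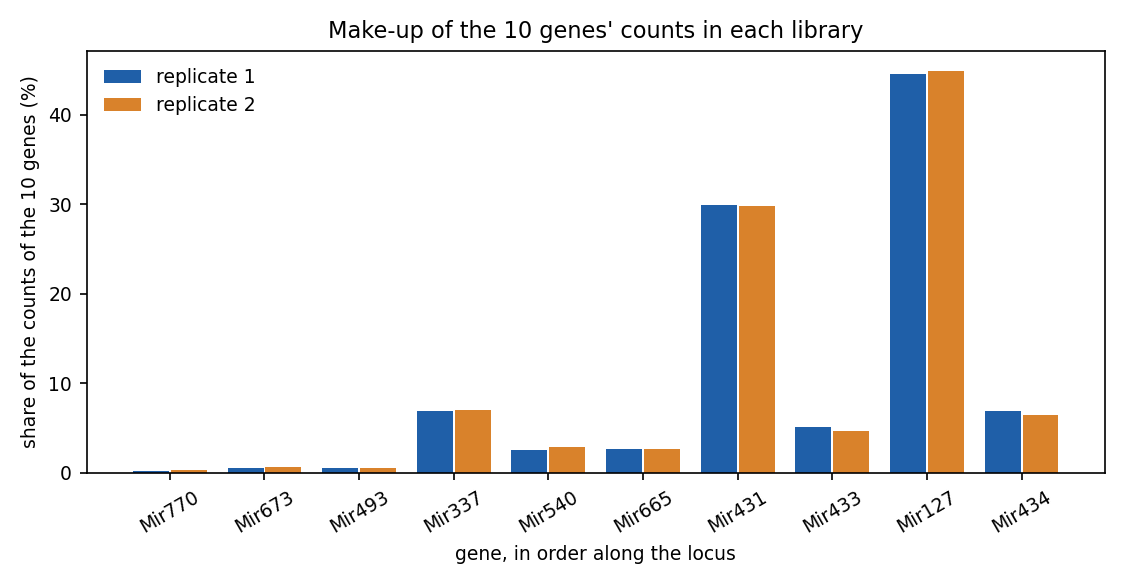
Share of the reads of the 10 genes (%) held by each gene, in order along the locus, with 1 bar per library. Mir127 (44.6% and 44.9%) and Mir431 (29.9% in both) lead, and the bars of a gene are nearly equal between libraries.

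All 10 genes were lower in replicate 2, where 43% of 407 tested genes (at least 10 reads over both libraries) were lower. The median log2 ratio of replicate 2 over replicate 1 was -0.25, against 0.04 over all tested genes. The summed level of the 10 genes in replicate 1 was 1.196 times that in replicate 2 (log2 ratio -0.26, 95% exact interval of counting error -0.27 to -0.25). The direction was the same in the sums of the 4 antisense genes (-0.27), of Mir337, Mir540 and Mir665 (-0.21) and of the first 3 genes (-0.19).

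An exact binomial test per gene, adjusted by the Benjamini-Hochberg method over the 407 genes, called 8 of the 10 genes lower in replicate 2, against 15.7% of all tested genes. Since this test finds more in deeply read genes, the share among the 275 genes with at least 100 reads is closer to these genes: 24% were called lower and 42.5% were lower by any amount. The test sets the reads of these 2 libraries against counting noise and does not measure the spread between limbs. Scaled to the own-strand sum, 64 genes were called lower and 81 higher; with TMM scaling the split was 86 and 45, with DESeq2 size factors 96 and 42, and with multiply aligned reads counted in the total 74 and 60. The 10 genes were lower in replicate 2 under each of these scalings. Of all tested genes, 54.8% were lower with TMM scaling, 57.2% with DESeq2 size factors and 48.4% with multiply aligned reads in the total.

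Among the called genes, Mir127 had 60714 reads in replicate 1 and 45975 in replicate 2 (log2 ratio -0.25, adjusted p = 1.86e-169, exact binomial test), and Mir431 had 40671 and 30562 (-0.26). Mir433 had the largest ratio of the 10, with 7000 and 4843 reads (-0.38), and Mir434 had 9344 and 6647 (-0.34). Mir337 had 9375 and 7213 reads (-0.22), and Mir665 had 3669 and 2762 (-0.26). Mir540 had the smallest ratio of the called genes, with 3515 and 2928 reads (-0.11, adjusted p = 0.00759, exact binomial test), and Mir493 had 713 and 527 (-0.28, adjusted p = 0.0025). The genes not called were Mir673 with 769 and 623 reads (-0.15, interval -0.31 to 0.00, adjusted p = 0.125, exact binomial test) and Mir770 with 358 and 304 (-0.08, interval -0.31 to 0.14, adjusted p = 0.731). With TMM scaling or DESeq2 size factors Mir673 was called as well.

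The differences were small in size. At least 1.2-fold lower levels in replicate 2 were found for 3 of the 10 genes, Mir433 (1.30-fold), Mir434 (1.26-fold) and Mir493 (1.22-fold), against 14.5% of all tested genes and 9.45% of those with at least 100 reads. Mir431, Mir665 and Mir127 lay just under this limit at 1.197-fold, 1.195-fold and 1.188-fold. The count therefore moved with the scaling, to 7 with TMM or DESeq2 size factors (18.4% and 19.2% of all tested genes) and to 6 either with multiply aligned reads in the total or with the Dlk1-Dio3 genes left out of it (16.2% of all tested genes in each).

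**Figure D3:**
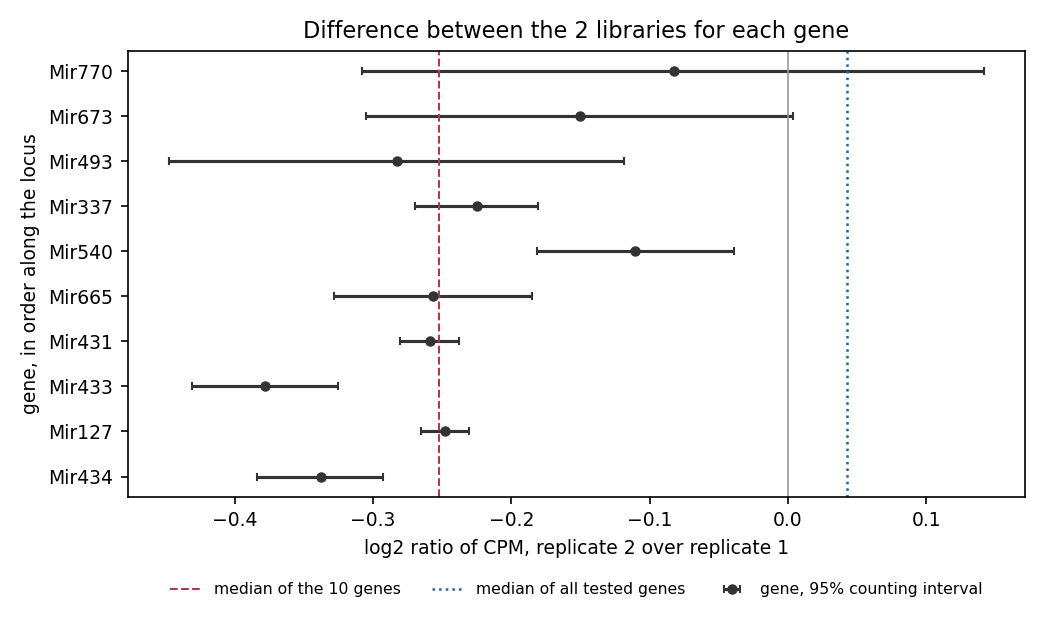
Log2 ratio of CPM, replicate 2 over replicate 1, for each gene in order along the locus, with 95% intervals of counting error; the dashed line is the median of the 10 genes (-0.25) and the dotted line that of all 407 tested genes (0.04). All 10 points lie left of 0, and only the intervals of Mir770 and Mir673 reach it.

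Each gene was then set against the summed reads of the other 9, which takes the library total out of the comparison. For 7 genes the 95% Wald interval of the difference in log2 ratio spanned 0, among them Mir127 (difference 0.02, interval -0.01 to 0.04) and Mir431 (0.00, -0.03 to 0.02). Mir433 (-0.13, -0.18 to -0.07) and Mir434 (-0.09, -0.13 to -0.04) lay below the others. Both are antisense to Rtl1, but so are Mir127 and Mir431, which held 74.6% of the reads of the 10 genes. Mir540 lay above (0.15, 0.08 to 0.22), unlike its close neighbours Mir337 (0.04, -0.01 to 0.08) and Mir665 (0.00, -0.07 to 0.07). These intervals cover counting error only and were not adjusted for the 10 comparisons. They are wide where reads were few, as for Mir770 (-0.05 to 0.40), so spanning 0 does not show an equal ratio. In shares, Mir433 held 5.14% of the reads of the 10 genes in replicate 1 and 4.73% in replicate 2, and Mir540 2.58% and 2.86%.

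Other microRNA genes of the tables between the first and last of the 10 gave few reads or none. Mir3070a, between Mir665 and Mir431, had 15 and 8 reads. Mir3070b next to it had 0 in both libraries, which by counting error alone allows up to 3 reads in each. Shared stretches were not checked for either gene, and multiply aligned reads were not counted. Their counts may therefore be too low, and the 0 does not show that Mir3070b was absent. Just past Mir434 lies a pair of microRNAs on opposite strands, Mir136 and Mir3071, which were looked at after the values were seen. The identifier in the tables at that place had 2767 and 2056 own-strand reads (600.4 and 496 CPM, log2 ratio -0.28). In GENCODE M21 it belongs to Mir3071 on the minus strand, but the tables carry an earlier version of it, whose strand is not given in the sources used here. These reads were therefore given to neither gene. Mir432, which also lies opposite Rtl1 past Mir434, likewise had 0 reads in both libraries.

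The distal part of the same locus, from Mir341 to Mir3072 within and beyond Rian, gives the nearest comparison. Of the 41 listed genes 36 were in the tables, and they summed to 64913 and 56525 CPM in the respective libraries. The highest were Mir411 (12873 and 10723 CPM), Mir487b (11739 and 9253 CPM) and Mir379 (8116 and 7283 CPM), so that Mir127 stood close to the highest distal gene. The distal sum was 2.20 and 2.29 times that of the 10 proximal genes. Shared stretches were not checked for the distal genes and multiply aligned reads were not counted, so this sum may miss reads. Of 34 distal genes tested, 31 were lower in replicate 2 and 20 were called lower, against 43% and 15.7% of all tested genes. The distal genes had a median log2 ratio of -0.15 and a range from -0.62 to 0.07. Whether the proximal median of -0.25 differs from it was not tested, since 1 library stands on each side.

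**Figure D4:**
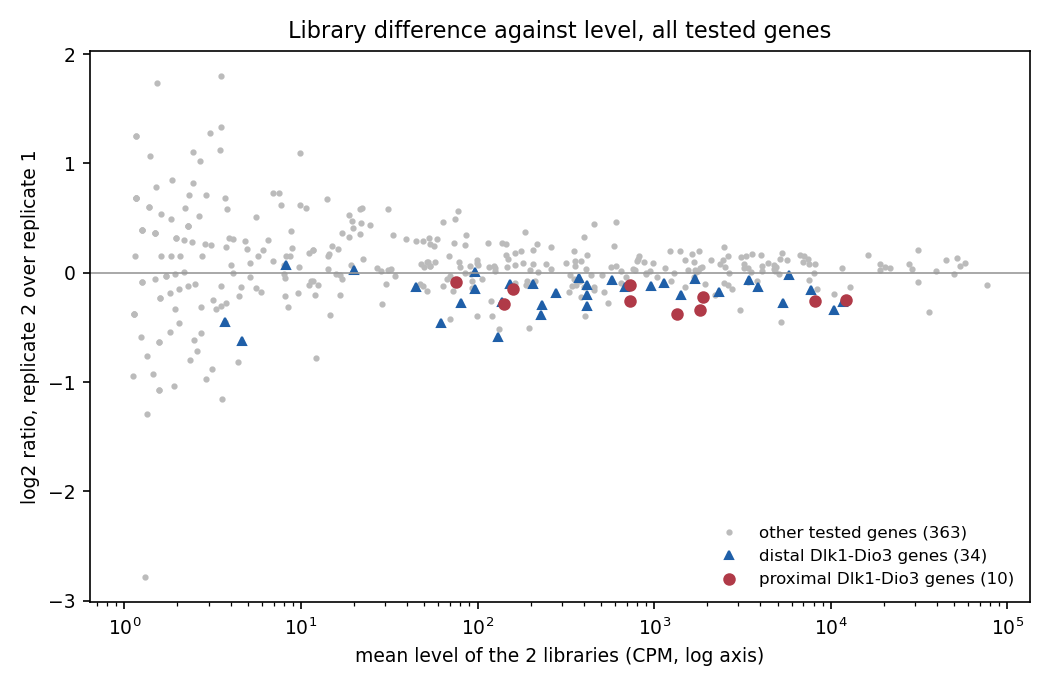
Log2 ratio of replicate 2 over replicate 1 against the mean level (CPM, log axis) of all 407 tested genes, with the 10 proximal genes as circles, 34 distal genes of the locus as triangles and 363 other genes as dots. The circles lie below 0 from about 75.5 to 12133 CPM, and most triangles lie below 0 as well.

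Few highly expressed genes elsewhere had a ratio as low as the median of the 10 genes. Outside the locus 82 genes reached a mean level of 1000 CPM or more, and 3 of them had a log2 ratio below the median of the 10 genes. Some of the 10, such as Mir540 and Mir665, stood below this level themselves, and genes elsewhere below it were not compared. The 5 nearest to that median were Mir188 (-0.20), the Hox-cluster genes Mir10b (-0.19) and Mir10a (-0.34), the smooth muscle gene Mir143 (-0.15) and the epidermal gene Mir203 (-0.36). The 10 genes themselves ran from -0.38 to -0.08, a range that also held others of the 82, such as Mir205 (-0.13) and Mir335 (-0.11). This likeness rests on 1 ratio between 2 libraries.

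Markers of some limb tissues were also lower in replicate 2. The skeletal muscle list (8 of 9 genes in the tables, none at 0 in both libraries) summed to 6565 CPM in replicate 1 and 4789 CPM in replicate 2. All 5 of its tested genes were lower, against 43% of all tested genes. Mir206 had the highest level of these 5 (6041 and 4411 CPM, log2 ratio -0.45), and Mir133b and Mir499 fell further (-0.51 each). The erythroid list (3 of 3 genes) summed to 547 and 417 CPM. Its gene Mir486 was nearly level at 8.03 and 7.96 CPM, and shares a stretch of 22 bases with 1 other microRNA gene. The surface epithelium list (7 of 7 genes) summed to 64405 and 53931 CPM. Most of the fall in the epithelial sum came from Mir203 (40413 and 31563 CPM, log2 ratio -0.36). The median log2 ratio of that list was -0.12, and Mir429 was nearly level at -0.01. The cartilage list summed to 59560 and 63162 CPM, led by Mir140, and the Hox list, a sign of limb patterning, to 65414 and 68182 CPM, although 5 of its 6 genes were lower in replicate 2 (median log2 ratio -0.09). The endothelial gene Mir126a stood at 18963 and 19268 CPM and the leukocyte list (3 of 4 genes) at 598 and 655 CPM. Within the leukocyte list Mir150 was lower in replicate 2, at 11.5 and 10.6 CPM. Of the brain genes, 5 were in the tables and 4 of these were at 0 in both libraries, while Mir9-3 had 2 reads and 0. Each of these shares a stretch of 22 bases with 2 other microRNA genes and multiply aligned reads were not counted, so these zeros do not show that brain microRNAs were absent; the same holds for Mir1a-1, Mir133a-1 and Mir133a-2 of the muscle list, at 1 or 2 reads. Their part in the shift of the 10 genes was not tested.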

How the data were processed

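Small RNA sequencing of 2 limb samples of 1 group was used. The deposited values were raw counts per gene, made by the authors on mm10 with GENCODE annotation M4, per the deposited read-me files; which aligner and counter were used is not given in the sources used here. A table held counts on either strand, on the own strand and on the opposite strand, a reading judged from the values, since the tables have no header. Tally rows for reads without a gene were left out of totals: unmapped reads were 12.8% and 13.7% of all reads in replicates 1 and 2, reads of several alignments 31.8% and 32.6%, and reads outside genes 4.19% and 4.31%.

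Genes were named by identifier from GENCODE M21 (1894 of 1973 matched). Of the 10 genes, 7 had the same identifier version and 3 another. Own-strand counts were scaled to CPM of their sum. Genes with at least 10 counts over both libraries were tested by a two-sided exact binomial test, Benjamini-Hochberg adjusted, called under 0.05. A prior count of 0.5 was added for log2 ratios. A quasi-likelihood test could not be fitted with 1 library on each side. Scripts were tested on simulated data. All 10 genes are named, with neighbours between them, the 3 highest distal genes and the 5 nearest genes by ratio outside the locus with at least 1000 CPM. The genes and lists were chosen with earlier results of these data known. P-values set the difference in reads between the 2 libraries against counting noise only, and a difference past it may be technical. Mature sequences came from RefSeq (GRCm38.p6), and transcripts from GENCODE M21. Python 3.11.15, scipy 1.17.1, R 4.3.3, edgeR 4.0.16 (TMM) and DESeq2 1.42.0 (size factors) were used.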

Additional observations from a re-analysis of the deposited data

Results flagged for a closer look

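Reads on the strand opposite to the genes, outside the own-strand measurement, exceeded the 3 reads that a count of 0 allows at 1 of the 10 genes. Mir337 had 14 opposite-strand reads in replicate 1 and 8 in replicate 2, beside 9375 and 7213 on its own strand. GENCODE M21 places another microRNA gene, Mir3544, on the opposite strand of Mir337 (chromosome 12, 109585813 to 109585873). At the 4 genes antisense to Rtl1, whose opposite strand is that of the Rtl1 mRNA, there were 2 opposite-strand reads in replicate 1, both at Mir434, and 0 in replicate 2, beside 117729 and 88027 on their own strand. The assay read small RNAs, so these counts do not measure the Rtl1 mRNA.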

How the results depend on the processing

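The summed level of the 10 genes, 27120 CPM, was 16547 CPM with reads of several alignments in the total, and 24704 to 29536 CPM with either replicate left out. The median log2 ratio was -0.31 with TMM scaling, -0.32 with DESeq2 size factors, -0.29 with reads of several alignments in the total and -0.27 without the Dlk1-Dio3 genes in it. The median over all tested genes moved alike, from 0.04 to -0.02, -0.03, 0.01 and 0.02 under these 4 settings. The count of genes at least 1.2-fold lower in replicate 2, which was 3, became 7, 7, 6 and 6 under these 4 settings. The count called lower was 8 or 9 in each setting run, while the share of all tested genes called lower ran from 9.02% without a count minimum to 24% at 100 counts or more. For these summary results, 19 of 27 alternative values were unchanged within the spread or the 1.5-fold limit and 8 moved, with none reversed. Some could not change, because all 10 genes had over 100 reads and no shared stretch of 22 bases. The settings on the count minimum and on shared stretches therefore dropped none of them. Leaving out either replicate could not count as a move either, because each library of a pair always lies within the SD of that pair. The tally leaves out the 1.2-fold count without the Dlk1-Dio3 genes. No paired analysis was possible because there was 1 group. Depth was lowest for Mir770, Mir493 and Mir673, with 304 to 769 reads per library. With 1 library on each side, no difference here has a replicate check.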
